A study of Caenorhabditis elegans with 8 samples.

Results

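The 4 libraries labelled as larvae of the Caenorhabditis elegans strain VC199, of 8 libraries in the series, were examined for the transcripts they held and for how far they differed from each other. All worms of both stages carried sir-2.1(ok434) IV, a deletion allele of a gene whose product, SIR-2.1, removes acetyl groups from lysine 16 of histone H4, and no wild-type library was analysed here. The larvae were whole worms, labelled L3, that had hatched overnight and then fed for 24 hours on plates, and the study's methods give the wider window of L2 to L3. The embryos, used only for comparison, were a mixture of stages freed from parents by bleach. The libraries are called larvae 1 to larvae 4 by their labelled replicate numbers, and larvae 2 joins 2 library codes under 1 title. The study's methods call its larvae and embryo collections biological replicates, but neither they nor the labels say that these were separate cultures. The p-values below therefore measure only the spread between these libraries, part of which may be technical. The deposited counts lack a check of the deletion, because a count over the whole gene does not show which part of sir-2.1 was read: the gene had 42.2, 43.6, 38.9 and 39.5 CPM in larvae 1 to 4, where CPM are gene counts per 1000000, with totals scaled between libraries.

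A nematode larva molts between stages: the hypodermis, the epidermis beneath the cuticle, secretes a new cuticle of collagens and a transient matrix, and the old one is then cast off. In feeding larvae, many genes for collagens, matrix proteins, proteases and the regulators of the molt are transcribed in a wave that recurs once in every larval stage, and different genes peak at different points of that wave. A whole-worm library therefore averages over the worms harvested, and it records the point in the wave only as the mean of those worms. In such bulk samples, fewer cells of a type and less RNA per cell cannot be told apart.

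The larvae libraries held 13687095 to 22419153 gene counts and the embryo libraries 16300947 to 31292935. Larvae 1 was the shallowest of the 8. Larvae had 20.3 to 38.2 alignments of multiply mapped reads per 100 gene counts, with the lowest value in larvae 1, and embryos had 7.88 to 11.4. Counts leave these reads out, so near-identical genes such as many collagens and histones are uncertain in the counts. The deposited transcripts per 1000000 (TPM) hold genes that counts miss. An example is rpl-13A, a ribosomal protein gene with 0 counts and a mean of 4504 TPM, and the reason for its 0 counts was not checked. Larvae 1 stood apart from the other larvae: the correlation of log2 CPM across genes was 0.949 to 0.954 between larvae 1 and each other larvae library, and 0.961 to 0.976 among larvae 2, 3 and 4. On the first principal component, which carried 48.9% of the variance between larvae, larvae 1 lay at −51.1 and larvae 2, 3 and 4 at 25, 16.49 and 9.62. For the main lists whose spread rests on larvae 1, values without it are given as well. The part of depth and of multiply mapped reads in its place was not tested.

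Ribosomal protein mRNAs filled much of the larval transcriptome. The 100 most abundant genes of each larvae library held 44.8% to 49.5% of its TPM, while the 100 most abundant of each embryo library held 30.2% to 31.8%. Of the 100 genes with the highest mean TPM over the larvae, 71 encode cytosolic ribosomal proteins, which together carried 35.3% of TPM, and 7 are cuticle collagens of the col- family, which carried 3.02%. The gene at the top was rpl-29 (B0513.3, chromosome IV, 13882169 to 13882638 in the WS220 build), with 35697, 28818, 27135 and 28169 TPM in larvae 1 to 4 and a mean of 29955 ± 3891 TPM (SD, n = 4). Larvae 1 was the highest for this ribosomal protein gene and the other 3 lay close together. Next came rpl-36 at 11810.2 ± 683 TPM, rpl-27A at 10037 ± 1134 TPM, rpl-31 at 9273 ± 1445 TPM and rps-29 at 9114 ± 2861 TPM, all genes of ribosomal proteins. The ranks after these were taken by rpl-18, rpl-39, Y82E9BR.3, rpl-38 and eef-1A.1, at 8073 TPM down to 7617 TPM. Y82E9BR.3 encodes subunit c of the mitochondrial ATP synthase, and eef-1A.1, the translation elongation factor, had an SD of only 361 TPM. The lead of rpl-29 holds in TPM only. From gene counts, which are not scaled by gene length, it had a mean of 1097 CPM, against 2760 CPM for rpl-36 and 15355 CPM for eef-1A.1. The reason for this gap between the measures was not tested.

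**Figure D1:**
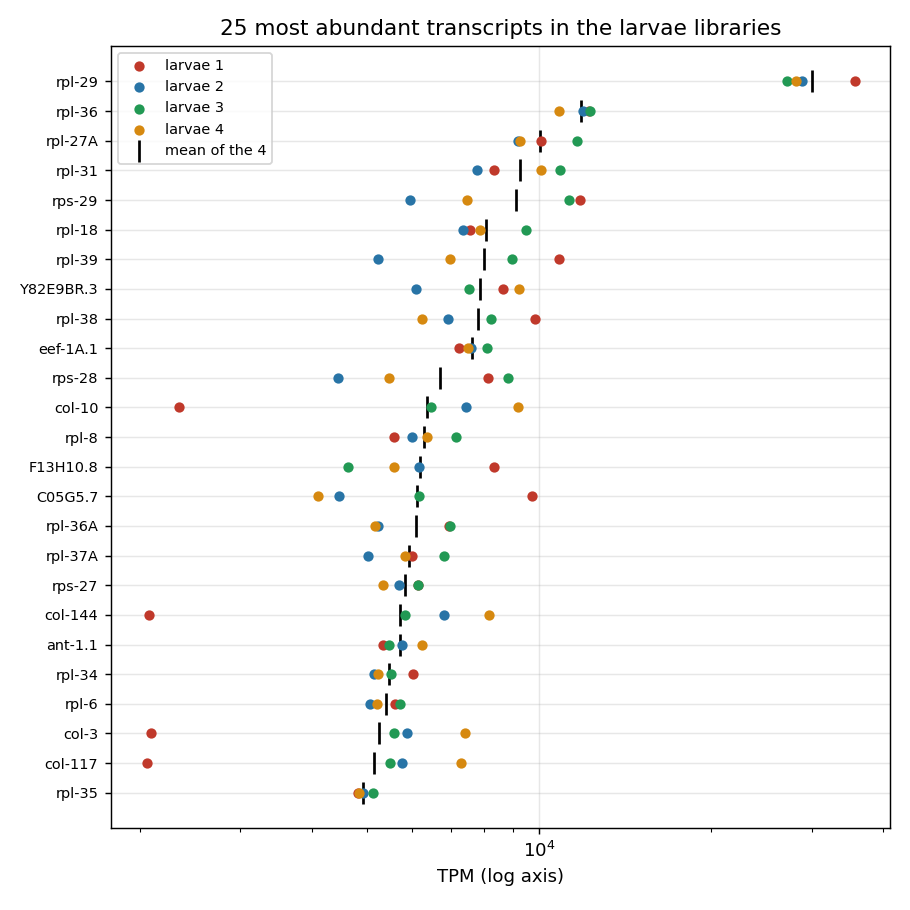
The 25 most abundant genes of the larvae by mean TPM, with TPM on a log axis, a dot for each of larvae 1 to 4 and a tick for their mean. The gene rpl-29 leads at 29955 TPM, and col-10 and col-144 show larvae 1 far to the left of the other 3 libraries.

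Below the ribosomal proteins, 14 of the 100 genes belonged to none of the gene families compared, and the others included collagens, actins and a gut protease. The collagen col-10 had 2347, 7448, 6460.1 and 9168 TPM in larvae 1 to 4, and col-144 had 2075, 6816, 5828 and 8155 TPM. For both collagens larvae 1 lay below the other 3, which did not come near it. The intestinal aspartyl protease gene asp-1 had 4338, 4379, 4131 and 6109.6 TPM, highest in larvae 4. The genes act-4 and act-1, which encode actins, averaged 2460.0 ± 589 TPM and 2914 ± 601 TPM. The fatty acid and retinol binding protein gene far-1 averaged 3302 ± 171 TPM and the adenine nucleotide translocase gene ant-1.1 5700.3 ± 401 TPM. In the plot of the 25 most abundant genes, ribosomal protein genes mostly have their dots closer together than the collagen genes do, although rps-29, rps-28 and rpl-39 are spread over a wider range.

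Marker lists were used to read which tissues the larval mRNA came from, and each list was set beside the test of larvae against embryos. That test called 5004 of 13571 genes higher in larvae (36.9%) and 5054 lower (37.2%), with edgeR's quasi-likelihood test at a Benjamini-Hochberg adjusted p under 0.05. With libraries scaled by their totals alone, 3683 were higher and 6609 lower, and the median log2 difference over all genes moved to −0.53, against −0.03 with the scaling used here. A list's count is therefore read against these shares. Body-wall muscle genes summed to 13917, 16979, 14315 and 19706 TPM in larvae 1 to 4, against 6889 ± 781 TPM (SD, n = 4) in embryos. Of 16 tested muscle genes, 15 were higher in larvae and 1 was lower. The intestine list summed to 7139.7, 7034, 6491 and 9962 TPM in larvae, against 1531 ± 271 TPM in embryos, with 11 of 14 higher and 1 lower. In both lists larvae 4 had the largest sum, and no larvae library overlapped the embryos.

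Neuronal genes were higher in larvae for 16 of 19 and lower for 1, while pharyngeal genes were higher for 8 of 13 and lower for 3. Among neuronal genes, egl-3, the proprotein convertase of neuropeptides, had 658, 693, 802 and 738 CPM in larvae 1 to 4, and its larvae over embryo log2 difference was 3.87 ± 0.23 (SE). All 30 tested flp neuropeptide genes were higher in larvae, as were 64 of 68 genes of the nlp family. The pharyngeal myosin gene myo-2 had 715, 1491, 1312 and 1659 CPM, with larvae 1 the lowest. Of 13 hypodermal genes 4 were higher and 6 lower, not far from the shares of all genes, 36.9% and 37.2%. With totals alone 8 of the 13 were lower, and the lower count of all genes rose as well, to 6609.

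The larvae held little RNA of germ line or adult marker genes. Germ line genes summed to 109, 97.4, 132 and 82.6 TPM in larvae 1 to 4, against 480.3 ± 112 TPM in embryos, and 12 of 19 were lower and 3 higher in larvae. Of these 3, glh-1, the Vasa helicase of P granules, had 88.9, 62.7, 100.2 and 63.6 CPM. All 10 tested oocyte and eggshell genes and all 16 tested DNA replication genes were lower in larvae. No major sperm protein gene of 30 and none of 3 adult cuticle collagens had a mean of 1 CPM, and of 12 sperm genes only spe-15 did, which encodes a myosin. Counts leave out multiply mapped reads, however. In TPM the 30 major sperm protein genes summed to 18.7, 0.847, 70.5 and 1.59 in larvae 1 to 4, highest in larvae 3. Over the 3 adult collagens larvae 1 to 4 had 32, 14, 23 and 8 counts. Yolk protein (vitellogenin) genes, which adults express, had 1126, 38, 394 and 109 counts summed over the family, the most in larvae 1. The part of adult RNA in these values was not tested. Each of the muscle, intestine, neuronal, pharynx, hypodermis, germ line, oocyte and replication lists kept the sign of its median log2 difference when libraries were scaled by totals alone or by DESeq2's size factors, and in DESeq2 itself.

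How far the larvae libraries differed from each other was measured for each gene as the biological coefficient of variation (CV), the CV of CPM after the part due to counting was taken off. The median was 18.5% over 12117 genes with a mean of at least 1 CPM, with quartiles of 11% and 31.1%. Without larvae 1 the median of these genes was 15.5%. Over the 10821 genes at this level in both stages, the median was 17.6% in larvae and 16.7% in embryos, and 5678 (52.5%) had the larger value in larvae. A further test asked which genes varied more than others of like abundance, with edgeR's quasi-likelihood dispersions set against their trend by limma. It called 0 of 12117 genes (0%), with a smallest adjusted p of 0.799, while 740 genes had an unadjusted p under 0.05 and DESeq2 marked 59 genes as dispersion outliers. Of those 59 genes, 39 were highest in larvae 1, 19 in larvae 4 and 1 in larvae 2. The edgeR and limma test could hardly call any gene here. Even the cytochrome P450 gene cyp-35B3, with 0 counts in larvae 1 to 3 and 943 in larvae 4, had an unadjusted p of 0.000487 in it and an adjusted p of 0.799. A result of 0 genes therefore does not show that genes of like abundance spread alike. No single gene below is called variable by that test, and the values that follow describe these 4 libraries.

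A plain size rule, chosen after the values were seen, counted genes whose highest library was at least 4-fold over the lowest. It took 944 of 12117 genes (7.79%), of which 66 had a lowest library at or under 3 counts, and without larvae 1 it took 409 (3.38%). Of the 944, 432 (45.8%) were highest in larvae 1, 231 in larvae 2, 103 in larvae 3 and 178 in larvae 4. Over all 12117 genes, larvae 1 to 4 were the highest for 28.1%, 24.2%, 25.4% and 22.3% and the lowest for 30.3%, 20.4%, 24.9% and 24.4%, and counts by highest or lowest library within a list are set against these shares. The most frequent pattern was highest in larvae 1 and lowest in larvae 2, with 179 genes. Genes of a list share the same 4 libraries, so their agreement is not repeated evidence.

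**Figure D2:**
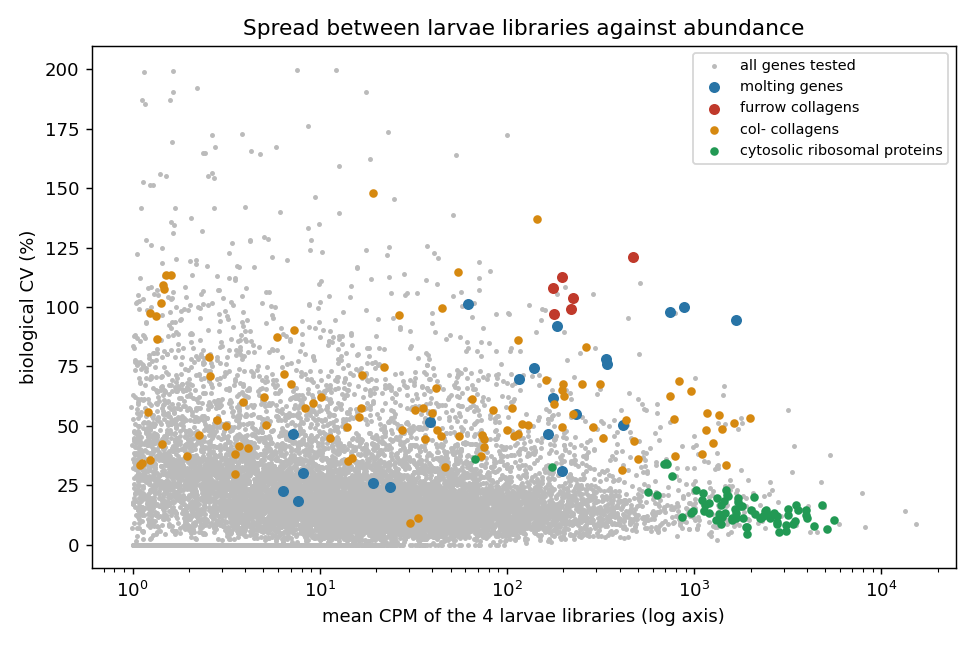
Biological CV between the 4 larvae libraries (percent) against mean CPM on a log axis for all 12117 genes in grey, with members of the marked lists in color. The furrow collagens sit at 97.2% to 121%, above most genes of like abundance, and ribosomal protein genes sit near a median of 13.3%.

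The 6 furrow collagens had the widest spread of the cuticle and molting lists, but not without larvae 1, when the body-shape and col- collagens had the larger medians. They encode cuticle collagens that line the furrows between the ridges of the cuticle, and worms that lack 1 of them are short and fat. The most abundant, dpy-8 (C31H2.2, chromosome X, 5148647 to 5150445), had 1320.3, 109, 219 and 233 CPM in larvae 1 to 4, and its CV was 121%. The gene dpy-9 had 459, 43.1, 86.1 and 118 CPM and dpy-10 had 571, 62.2, 125 and 142 CPM. In all 6 genes larvae 1 was the highest and larvae 2 the lowest, with no other library near larvae 1. For dpy-2 the values were 530.1, 59.0, 88.1 and 114 CPM, for dpy-3 539, 54.2, 126 and 159 CPM and for dpy-7 436, 56.4, 95.7 and 127 CPM. All 6 passed the 4-fold rule and none did without larvae 1. The list's median CV was 106% in larvae and 13.8% in embryos, where the embryo value, here and for other lists, is over the same genes as far as they reached 1 CPM in embryos. In larvae 2 to 4 alone it was 38.1%. Summed, the 6 genes made 2314, 261, 440.4 and 558 TPM, and the embryos 976 ± 118 TPM (SD, n = 4), so larvae 1 lay above the embryo mean and larvae 2 to 4 below it. Against embryos, dpy-8 and dpy-9 were higher in larvae, by 8.23 ± 0.85 and 6.92 ± 0.73 on the log2 scale (SE), and the other 4 did not pass the edgeR test.

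Other collagens named for body shape did not follow the furrow collagens in full. The larvae 1 value was the highest for 9 of 12 expressed members, and larvae 4 was the lowest for 11. The collagen gene sqt-3 had 2728, 1088, 2068 and 978 CPM, with larvae 1 and 3 high. The genes dpy-13, dpy-4 and dpy-5 were highest in larvae 3 instead, and dpy-13 had 1282, 1087, 1692 and 695 CPM. The collagen lon-3, which affects body length, had 230.1, 58.5, 66.3 and 59.5 CPM, so that 3 libraries lay together and larvae 1 alone stood off, and its CV of 81.4% was 6.25% without larvae 1. The median CV of the list was 57.2% in larvae and 23.3% in embryos, and 43.4% without larvae 1.

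Genes needed for molting showed the same library at the top. Of 21 such genes, 18 were highest in larvae 1 and 14 lowest in larvae 2, and 9 passed the 4-fold rule, none of them without larvae 1. The protease inhibitor gene mlt-11 had 3993, 459, 1002 and 1236 CPM in larvae 1 to 4. The genes noah-1 and noah-2 encode zona pellucida domain proteins of the apical matrix that forms before the new cuticle, and noah-1 had 2184, 262, 488 and 590.0 CPM. Larvae 1 exceeded each other library several-fold in both mlt-11 and noah-1, and larvae 4 came next. The astacin metalloprotease gene nas-37, needed to shed the old cuticle, had 156, 24.6, 35.3 and 32.2 CPM, with a CV of 101% that was 17.3% without larvae 1. The patched-related gene ptr-4 had 441, 73.4, 109 and 121.5 CPM and acn-1, which encodes an ACE-like protein, had 723, 145, 277 and 221 CPM. Both again had larvae 1 far above and larvae 2 lowest. The hedgehog-related gene qua-1 ranged 4.50-fold between libraries and the megalin-like receptor gene lrp-1 2.49-fold, against 1.66-fold and 1.19-fold without larvae 1.

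Not every molting gene followed. The peroxidase gene mlt-7 had 49.5, 233, 108 and 76.0 CPM, so it was highest in larvae 2 and lowest in larvae 1, the reverse of mlt-11. The metalloprotease gene nas-36 was highest in larvae 2 too, at 6.37, 11.7, 7.35 and 3.46 CPM, and mlt-10 was high in larvae 1 and 3 at 248, 137, 252 and 152 CPM. The kinase genes nekl-2 and nekl-3, whose products act in endocytosis of the hypodermis, had CVs of 18.2% and 26%, below the list's median, where the median of all genes was 18.5%. Their ankyrin-repeat partners mlt-2, mlt-3 and mlt-4 had 22.4%, 24.1% and 30.2%. For the whole list the median CV was 55.1% in larvae and 14% in embryos, and 30.9% without larvae 1. The sum over the 21 genes was 2393, 619.9, 873 and 790.4 TPM, against 1915 ± 56.6 TPM in embryos, so larvae 1 lay above the embryos and the other 3 larvae below them. By gene, 8 of the 21 were higher in larvae than in embryos, a share near the 36.9% of all genes, and none was lower. With libraries scaled by totals alone 6 of the 21 were higher and 2 lower, and the list's median log2 difference was −0.13, against 0.37 with the scaling used here.

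**Figure D3:**
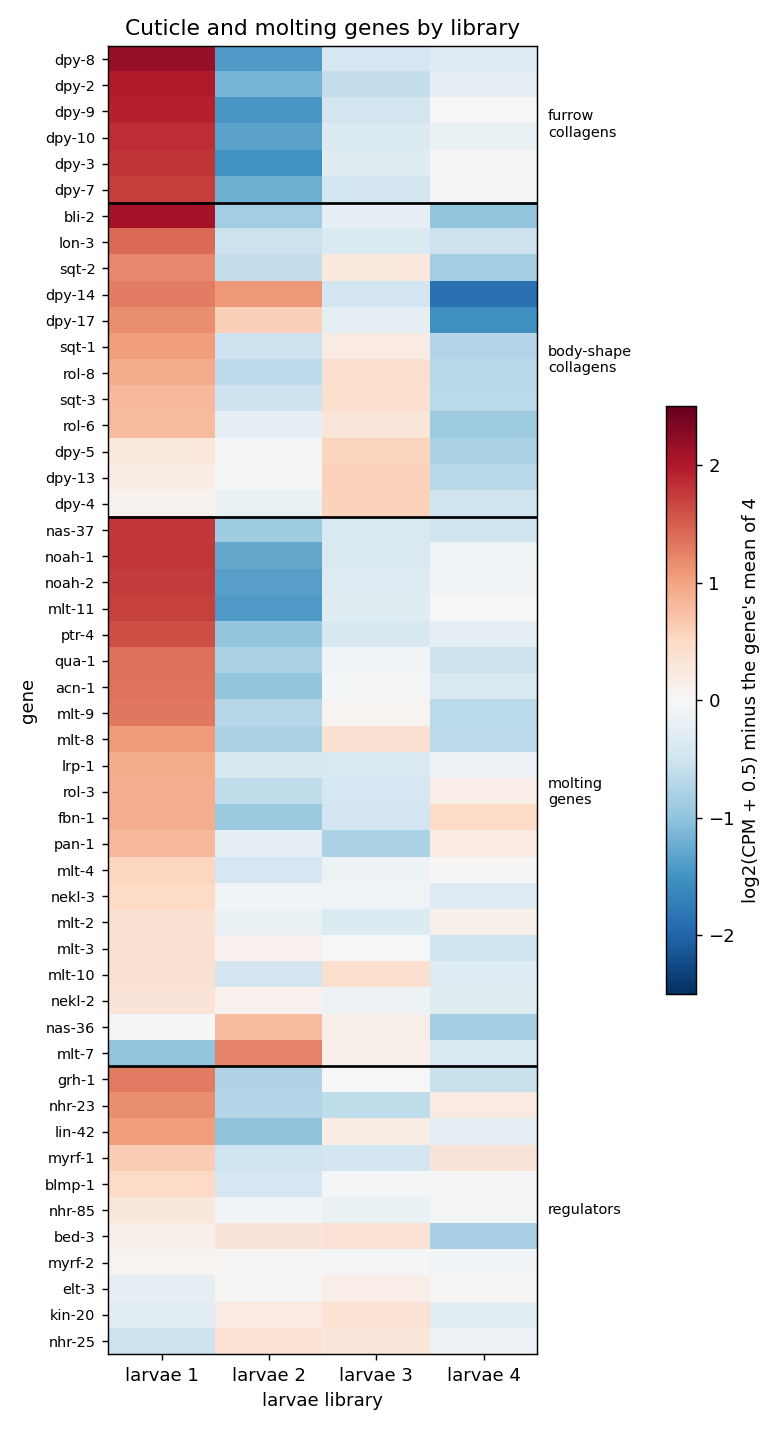
Deviation of each larvae library from the gene's mean over the 4 libraries (log2(CPM + 0.5), color scale), with a column for each of larvae 1 to 4 and a line for each furrow collagen, body-shape collagen, molting gene and regulator. The furrow collagens, mlt-11, noah-1 and noah-2 are high in larvae 1 and low in larvae 2, while mlt-7 shows the reverse.

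The regulators of the molt and of its rhythm spread less than the matrix genes. Of 11 genes, 7 were highest in larvae 1 and 2 passed the 4-fold rule, grh-1 and lin-42, neither of them without larvae 1. The Grainyhead transcription factor gene grh-1 had 124, 29.5, 50.5 and 33.6 CPM, and lin-42 (F47F6.1, chromosome II, 1233957 to 1244042), the Period homolog that times larval development, had 963, 229, 526 and 398 CPM. The nuclear receptor gene nhr-23 (C01H6.5, chromosome I, 7214743 to 7221804), whose product is needed for molting, had 118, 31.5, 33.6 and 61.2 CPM. Each was highest in larvae 1 and lowest in larvae 2, and for nhr-23 larvae 3 lay within 3 CPM of larvae 2. The transcription factor genes myrf-1 and myrf-2, close relatives that are bound to membranes until they are cleaved, differed from each other: myrf-1 had 396, 180.3, 187 and 318 CPM and myrf-2 251, 248, 234.8 and 231 CPM. The CV was 38.9% for myrf-1 and 3.74% for myrf-2. The BLIMP-1 homolog blmp-1 had 145, 77.0, 99.8 and 99.2 CPM, and the nuclear receptor gene nhr-25 ran the other way, at 28.1, 51.6, 49.5 and 36.1 CPM. The Rev-Erb homolog nhr-85 and the hypodermal GATA factor gene elt-3 had CVs of 14.1% and 10.5%, and kin-20, the casein kinase 1 homolog, 23.4%. The list's median CV was 26.9% in larvae and 19.4% in embryos, and 22.3% without larvae 1. Among 10 heterochronic genes, which set stage identity, the median was 18.7% in larvae (12.7% without larvae 1) and 23.9% in embryos. In that list lin-28, which holds early larval fates, had 16.7, 18.7, 19.7 and 18.5 CPM, while the nuclear receptor gene daf-12 had 169.8, 213, 123 and 314 CPM, lowest in larvae 3.

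Genes of the apical matrix that precedes the cuticle were mostly high in the library where the furrow collagens were high. Of 19 expressed members, 12 were highest in larvae 1 and 9 passed the 4-fold rule, 2 of them without larvae 1. The lipocalin gene lpr-3 had 1925, 218, 446 and 577 CPM, and lpr-4, lpr-5 and lpr-6, which were looked up after the value of lpr-3 was seen, ranged 9.01-fold, 8.37-fold and 9.40-fold with the same order at the ends, larvae 1 highest and larvae 2 lowest. These 4 genes lie close together on the X chromosome of WS220, between 11057370 and 11066745. The cuticlin gene cut-2 did not share that order, with 575, 1139, 1960.2 and 374 CPM, so larvae 3 was the highest and larvae 4 the lowest. Over the cut and cutl families, larvae 4 was the lowest library for 21 of 28 genes and larvae 2 the highest for 14. Their sum was 677, 1412, 2014 and 443 TPM, a range of 4.55-fold that was 1.80-fold without cut-2.

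Hedgehog-related genes, a large nematode family of secreted proteins of the hypodermis and other epithelia, had a median CV of 56.7% in larvae and 24.7% in embryos over 37 genes, and 17 passed the 4-fold rule. Without larvae 1 the larval median was 32.6% and 3 passed. The member with the widest spread was wrt-10, at 471, 48.5, 93.0 and 123 CPM. The larvae 1 excess of wrt-10 was not general to the family, since grl-16 had 231, 690.1, 925 and 367 CPM and grl-4 99.0, 448, 484 and 179 CPM, both highest in larvae 3 and lowest in larvae 1. By highest library the 37 genes split into 13, 9, 13 and 2 for larvae 1 to 4. The 25 patched-related genes had a median CV of 35.3%, with 5 past the 4-fold rule and 2 without larvae 1, and CVs of 101% for ptr-15 and 6.89% for ptr-21. For ptr-15 the values were 22.1, 3.83, 4.27 and 4.85 CPM, so only larvae 1 stood off, and its CV was 4.96% without it.

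The col- family of cuticle collagens was most often lowest in larvae 1. Among the 158 col- genes counted, 101 had a mean of at least 1 CPM, 50 passed the 4-fold rule, and 16 did so without larvae 1. Of the 101, 18 were highest in larvae 1, 31 in larvae 2, 29 in larvae 3 and 23 in larvae 4, and 58 were lowest in larvae 1. By highest library these counts lie not far from the shares of all genes, 28.1%, 24.2%, 25.4% and 22.3%. Larvae 1 was the lowest for 30.3% of all genes. The family sum was 23998, 67782, 58008 and 76838 TPM in larvae 1 to 4, against 6754 ± 1195 TPM in embryos. Larvae 1 thus had the least collagen RNA of the col- family while it had the most furrow collagen RNA. The 31 genes highest in larvae 2 summed to 2235, 9999 and 8457 CPM in larvae 1 to 3 and 6149.6 CPM in larvae 4, and the 23 highest in larvae 4 had 5198, 10236, 10597 and 19107 CPM. These groups were set by the values themselves, so the contrast between libraries within a group is a description. Among single genes, col-101 had 4.89, 4.63, 5.41 and 61.9 CPM and col-176 65.3, 30.7, 41 and 440.2 CPM, both high in larvae 4 alone, whereas col-99, a collagen with a membrane anchor, had 33.1, 26.8, 28.7 and 32.5 CPM. The family's median CV was 53.8% in larvae and 24.4% in embryos, and 41.9% in larvae 2 to 4. Of 100 tested genes 75 were higher in larvae than in embryos, 5 lower. Collagen genes with near-identical copies can be undercounted, and col-3, at a mean of 5237 TPM, had only 35.7, 109, 70.1 and 88.2 CPM. Both measures put larvae 1 lowest for col-3, which had 2094, 5865, 5566 and 7421 TPM.

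**Figure D4:**
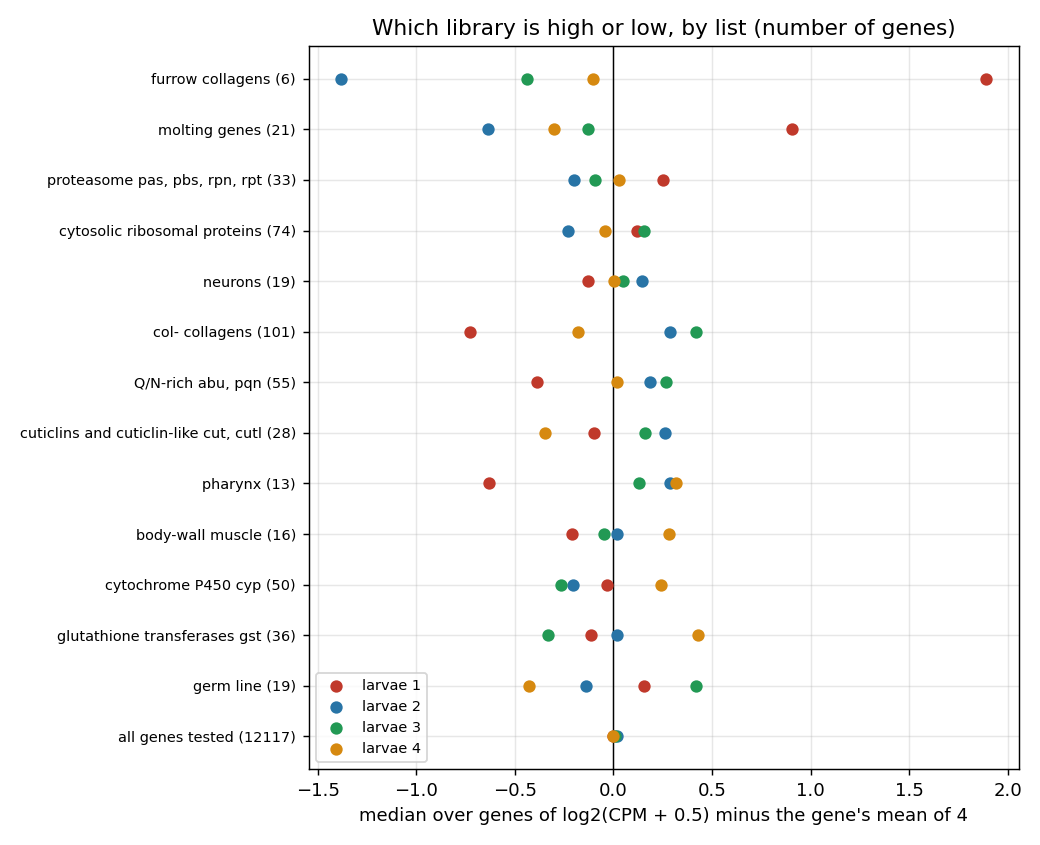
Median over the genes of a list of log2(CPM + 0.5) minus the gene's mean of the 4 libraries (horizontal axis), with a line for each list and a dot for each of larvae 1 to 4. In larvae 1 to 4 the furrow collagens stand at 1.89, −1.38, −0.44 and −0.11, the col- collagens −0.73, 0.29, 0.42 and −0.18 and the pharynx list −0.63, 0.29, 0.13 and 0.32.

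Pharyngeal genes and the Q/N-rich abu and pqn genes, many of which are expressed in the pharynx, were low in larvae 1. The median CV of the pharynx list was 32.0%, and 17.7% without larvae 1. It summed to 644, 1545, 1160.0 and 1279 TPM, and larvae 1 was the lowest library for 11 of its 13 genes. The pharyngeal troponin T gene tnt-4 had 109, 318, 267 and 379.8 CPM. Of 55 abu and pqn genes 40 were lowest in larvae 1, and 16 passed the 4-fold rule, 1 of them without larvae 1. The gene abu-14 had 177, 621, 767 and 238 CPM and abu-8 45.5, 308, 218 and 103 CPM. For abu-14, larvae 1 and 4 lay together below larvae 2 and 3. The CV of the abu and pqn genes had a median of 33.8% in larvae and 23.1% in embryos, and 20.05% without larvae 1. Neuronal genes differed less, with a median CV of 12% in larvae and 29.2% in embryos, although larvae 1 was the lowest for 13 of 19. Muscle genes were lowest in larvae 1 for 11 of 16 and highest in larvae 4 for 14. The medians by list and library in the plot of deviations put larvae 1 on opposite sides for the furrow and molting lists and for the pharynx and col- lists.

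Larvae 4 led a different group of genes. Of 50 cytochrome P450 genes, whose products oxidise lipids and foreign compounds, 25 were highest in larvae 4, and 21 passed the 4-fold rule, 16 of them without larvae 1. The gene cyp-33A1 (C12D5.7, chromosome V, 7679295 to 7681518) had 19.4, 10.03, 11.9 and 357 CPM in larvae 1 to 4. The gene cyp-35B3 had 0 counts in larvae 1 to 3 and 48.7 CPM in larvae 4, at least 385-fold higher than larvae 2, the deepest of the other 3, when larvae 2 is set to a floor of 3 counts. Glutathione transferase genes were highest in larvae 4 for 21 of 36, with 35.0, 62, 41 and 148 CPM for gst-7. The ABC transporter gene pgp-13 had 5.41, 1.73, 2.05 and 83.6 CPM, the gene pud-3 had 14.1, 9.35, 5.30 and 184 CPM and the flavin monooxygenase gene fmo-5, looked up after values were seen, had 24.1, 25.4, 37.3 and 198 CPM. Larvae 4 stood above larvae 1, 2 and 3 for each of these genes, and those libraries also differed among themselves, as for pgp-13 and pud-3. Saposin-like genes were highest in larvae 4 for 12 of 19 and C-type lectin genes for 41 of 84. Over all genes larvae 4 was the highest for 22.3%. Intestinal markers were highest in larvae 4 for 9 of 14, without any passing the 4-fold rule, and cpr-1, a gut cysteine protease gene, had 1114, 708, 686 and 1597 CPM. The cpr, asp, cpl and cpz protease genes, cpr-1 among them, were highest in larvae 4 for only 5 of 22 and in larvae 1 for 11. UDP-glycosyltransferase genes were highest in larvae 4 for 16 of 56 and in larvae 1 for 18.

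Among 5381 genes with a mean of at least 20 CPM, 39 had a CV over 100%, 31 of them highest in larvae 1 and 8 in larvae 4. The 10 at the top were pgp-13 at 174%, cyp-33A1 at 172%, pud-3 at 164%, F49C12.7 at 146%, lep-5 at 139%, col-176 at 137%, Y37A1B.7 at 126%, C11H1.5 at 125%, F15E6.3 at 123% and atf-8 at 122.01%. Larvae 4 was the highest for pgp-13, cyp-33A1, pud-3, F49C12.7 and col-176, and larvae 1 for the others. Without larvae 1 the CV was 58.3% for lep-5, 55.5% for C11H1.5, 16.7% for F15E6.3 and 31.7% for atf-8. The noncoding RNA gene lep-5, which takes part in the timing of larval to adult changes, had 158, 5.18, 21.4 and 21.4 CPM. The transcription factor gene atf-8 had 64.7, 8.05, 6.61 and 12.2 CPM. Y37A1B.7 had 109, 13.4, 15.6 and 12.9 CPM, and its CV without larvae 1 was 8.07%. Further down, vitellogenin genes had a median CV of 136% on low counts, and all 4 with a mean of at least 1 CPM were highest in larvae 1 and lowest in larvae 2, such as vit-6 at 38.7, 0.421, 9.29 and 2.37 CPM. Antimicrobial caenacin genes had a median CV of 61.3% over 7 genes, 5 of them past the 4-fold rule, and 40.2% with 2 past it without larvae 1. The values were 42.7, 2.53, 1.65 and 3.51 CPM for cnc-2 and 136, 52.0, 44.7 and 15.9 CPM for cnc-4, both highest in larvae 1.

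Germ line genes showed a small, shared order. Larvae 3 was the highest for 16 of 19 and larvae 4 the lowest for 15, with 88.9, 62.7, 100.2 and 63.6 CPM for glh-1 and 61.1, 38.5, 68.1 and 41.3 CPM for the P granule gene pgl-1. Their list's median CV was 27.7% in larvae and 21.2% in embryos, and none passed the 4-fold rule. Of 16 replication genes 15 were lowest in larvae 4, among them rnr-1, the large subunit of ribonucleotide reductase, at 131, 90.1, 114 and 71.1 CPM. Of 10 oocyte genes 9 were highest in larvae 1, at levels of a few CPM, and their median CV of 32.2% was 10.7% without it. Among heat shock genes hsp-16.41, which encodes a small heat shock protein, had 9.56, 16.43, 0.456 and 19.4 CPM, lowest in larvae 3, while the endoplasmic reticulum chaperone gene hsp-4 had 199.8, 208, 195 and 192 CPM.

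With all 4 libraries, the smallest list medians belonged to genes for the folding, splicing and translation machinery. The 8 cct genes, whose products form the chaperonin that folds actin and tubulin, had a median CV of 5.89% in larvae and 8.39% in embryos, and cct-1 had 442, 412, 425 and 418 CPM. Next came 14 splicing genes at 10.2%, 32 aminoacyl-tRNA synthetase genes at 10.5%, 65 mitochondrial ribosomal protein genes at 11% and 38 translation factor genes at 11.2%. No gene of these 5 families passed the 4-fold rule. Without larvae 1 the order changed in part: splicing genes were at 6.11%, and neuronal genes at 8.97% and proteasome genes at 9.03% lay below translation factors at 10.5% and mitochondrial ribosomal proteins at 10.7%. The 74 cytosolic ribosomal protein genes had a median of 13.3% in larvae and 14% in embryos, and larvae 2 was the lowest library for 67 of them, against larvae 3 as the highest for 44 and larvae 1 for 29. Their sum was 388896, 328767, 381074 and 337535 TPM, against 185561 ± 20209 TPM in embryos, and all 74 were higher in larvae than in embryos under each scaling tried. The proteasome genes had a median of 15.1% with all 4 libraries and were highest in larvae 1 for 31 of 33.

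For single genes, 63 of the 5381 with a mean of at least 20 CPM had a CV of 0 once counting error was taken off. The 10 with the smallest uncorrected spread were spe-39, cpna-5, ZK973.11, Y71H2AM.1, mog-5, F52C9.3, mys-1, ttll-4, T01E8.1 and dpy-30. The gene dpy-30, a subunit of histone H3 lysine 4 methyltransferase complexes, had 85.5, 86.9, 87.2 and 88.5 CPM in larvae 1 to 4. The splicing helicase gene mog-5 had 50.8, 49.4, 49.5 and 49.9 CPM, and mys-1, a MYST family histone acetyltransferase gene, had 21.1, 20.4, 20.9 and 20.9 CPM. The vesicle transport gene spe-39 had 21.4, 21.2, 21.5 and 21.6 CPM. The libraries of these genes differed by no more than counting would give.

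**Figure D5:**
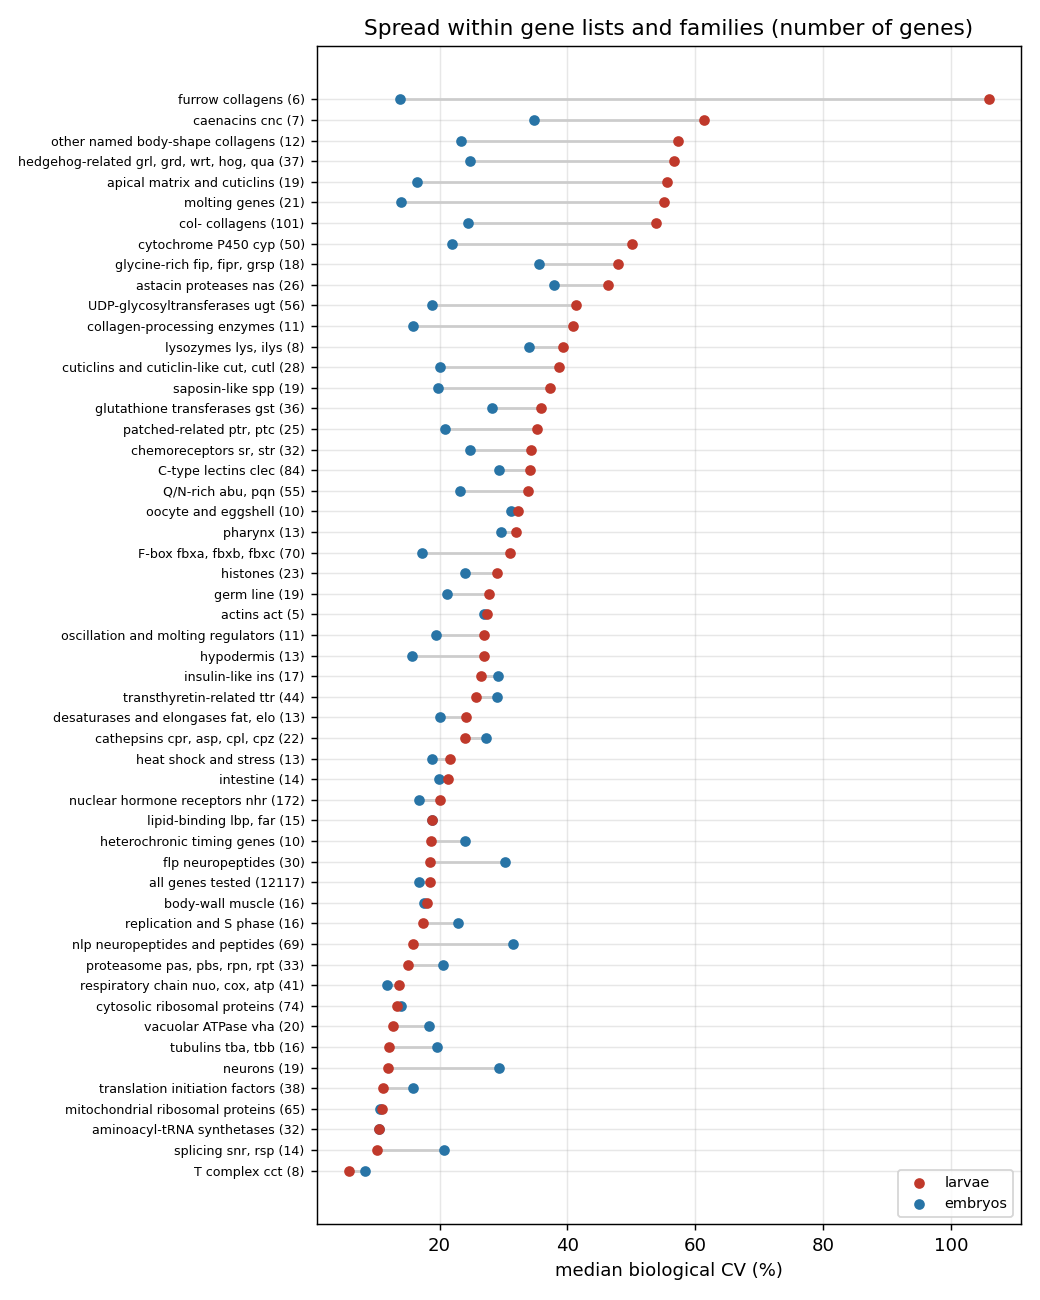
Median biological CV (percent) of each gene list or family, with a red dot for larvae and a blue dot for embryos and the number of genes with a mean of at least 1 CPM in larvae in brackets. The furrow collagens stand at 106% in larvae and 13.8% in embryos, and the cct genes at 5.89% in larvae and 8.39% in embryos.

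Set against embryos, no difference between the stages was detected in the median deviation of a library, a measure that gives little weight to widely spread genes. The median absolute deviation of a library from its stage's median, over 12721 genes, was 0.186, 0.132, 0.154 and 0.138 log2 units in larvae 1 to 4, and 0.209, 0.137, 0.134 and 0.0864 in the embryo libraries. The stage means were 0.153 ± 0.0242 in larvae and 0.142 ± 0.0508 in embryos (SD, n = 4 each), a difference of 0.0111 with an exact permutation p of 0.8286, two-sided over 70 regroupings, which can give no p below 0.0286. The ranges of the stages overlapped. In root mean square deviation, which gives more weight to widely spread genes, larvae exceeded embryos by 0.1113 (exact permutation p of 0.1143). The common biological CV that edgeR fitted over all genes of a stage was 31.5% in larvae and 21.8% in embryos, a gap that was not tested. Without embryos 1 the difference in median absolute deviation was 0.0781 (exact permutation p of 0.0286). Without any 1 of the larvae libraries it lay between −0.0572 and −0.0432. In either case the libraries left in a stage of 3 deviate less by construction, so that p does not compare like with like. Lists differed in which stage had the larger median CV, as the plot of median CVs shows. The furrow, molting and apical matrix lists had larger medians in larvae, and the neuronal, splicing and proteasome lists had larger medians in embryos. These differences by list were not tested.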

How the data were processed

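Poly(A) mRNA of whole worms was sequenced from 4 larvae and 4 embryo libraries. The deposited counts are whole reads per gene that the authors obtained with Tophat alignment to WS220 and HTSeq, and the 5 summary classes that name no gene were left out. Reads in no gene were 4.56% to 6.06% of the larvae reads assigned to a gene, to no gene or ambiguously, with multiply mapped reads left out. The deposited TPM were scaled by the authors to a fixed sum per library. The tool behind the TPM is not given in the sources used here, and 14 TPM columns of other libraries were not used. The authors' DESeq2 tables of a strain contrast hold fold changes, standard errors and p-values and were not used. Starts in the deposited loci count from 0, so 1 was added.

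Counts were scaled by TMM (edgeR 4.0.16, limma 3.58.1, R 4.3.3). Stages were compared with edgeR's quasi-likelihood test after filterByExpr, with Benjamini-Hochberg adjustment at 0.05 and no replicate block. DESeq2 1.42.0 was an alternative. Biological CV was the CV of CPM with the Poisson part taken off its square, for genes with a mean of at least 1 CPM. The log2 CPM used a pseudocount of 0.5, and medians per library were compared by exact permutation. The spread test, the CV and the stage test were checked on simulated counts. Whether those counts share the scatter of these libraries was not tested. The checks therefore do not show what the spread test can call here. Intervals are not given, and a floor of 3 counts covers counting error only.

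The members and lists were chosen with earlier results of these data known. The ribosomal and chemoreceptor name patterns were corrected after values had been seen. Named genes were the 10 most abundant by mean TPM, the 10 of highest and lowest CV at a mean of at least 20 CPM, every expressed furrow, molting and regulator gene, up to 4 abundant members and the CV extremes (at least 5 CPM) of each other list, and sir-2.1. Ties at a CV of 0 were ordered by uncorrected CV, a choice made after the values were seen. The collagens col-10 and col-144, the lpr and fmo-5 genes and other genes outside that rule that are named were chosen after values were seen.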

Additional observations from a re-analysis of the deposited data

Results flagged for a closer look

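In 22 of 121 sets of 4 larvae libraries examined, 1 library lay far from the other 3, its gap to the nearest being above 0.829 of the whole range (Dixon's 95% value). Chance gives about 1 in 20. Of 63 sets of list sums and library measures 4 were marked this way, where chance gives 3.15. The other 18 came from 58 single genes, many of them picked for a wide spread, so their number is not set against chance. Larvae 1 stood off in the summed TPM of the furrow collagens (2314) and of the molting genes (2393).

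Among single genes larvae 1 stood off, above the others, for dpy-8 (1320.3 CPM), dpy-2 (530.1 CPM), dpy-10 (571 CPM), noah-1 (2184 CPM), lrp-1 (726 CPM), nas-37 (156 CPM) and ptr-4 (441 CPM). It also stood off for rpl-29 (1406 CPM), lep-5 (158 CPM), Y37A1B.7 (109 CPM), C11H1.5 (66.9 CPM), F15E6.3 (115 CPM) and atf-8 (64.7 CPM). Larvae 4 stood off, above the others, for pgp-13 (83.6 CPM), cyp-33A1 (357 CPM), pud-3 (184 CPM), F49C12.7 (78.9 CPM) and col-176 (440.2 CPM).

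Larvae 3 stood off in 2 values. The summed TPM of heat shock and stress genes was 1629 in larvae 3, and 2032, 1987 and 2044 TPM in larvae 1, 2 and 4. As a share of gene counts the same list held 0.394%, 0.377%, 0.365% and 0.404% in larvae 1 to 4. By that measure larvae 3 was the lowest but lay near larvae 2. Genes of the mitochondrial genome took 0.019% of counts in larvae 3, and 0.166%, 0.149% and 0.174% in larvae 1, 2 and 4.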

How the results depend on the processing

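The count of genes more variable than the abundance trend stayed at 0 under every alternative of the edgeR and limma test, leave-one-out included (0 to 0), and DESeq2 marked 59. Because the edgeR and limma test could hardly call any gene with these libraries, the repeated 0 says little about spread. The median CV of 18.5% was 16.8% over genes with a mean of at least 5 CPM and 15.4% to 18.5% with 1 larvae library left out, lowest without larvae 1. The 944 genes of the 4-fold rule became 454 at 5 CPM and 409 (without larvae 1) to 754 with 1 library left out. These alternatives of the 4-fold rule were chosen after seeing the data. In the stage comparison all alternatives stayed within 1.5 times of the 5004 higher and 5054 lower genes, from 4816 to 5179 higher and 4898 to 5243 lower with 1 library left out.

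The difference in deviation between stages was 0.0111 and turned round when any larvae library was left out, to −0.0572, −0.0432, −0.0485 and −0.0455 without larvae 1, 2, 3 and 4, because with 3 libraries 1 value is itself the median. The range over all left-out libraries was −0.0572 to 0.0781, the last without embryos 1 (exact permutation p of 0.0286, the smallest possible). By the same construction a left-out embryo library lowers the embryo deviations, so that p does not compare like with like.

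With the replicate block 4805 genes were higher and 4962 lower. Same-numbered libraries of the stages did not deviate together (correlations of −0.137, −0.206, 0.0966 and −0.0521), so the numbers name libraries only. Of 55 list medians, 10 moved by over 1.5 times without larvae 1 and 6 without larvae 4, and none with TPM. Single genes depended more on the measure, since 59 of 328 CVs of named genes moved with TPM in place of CPM. Near-identical genes and the number of libraries limit these values.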
